A study of Mus musculus with 6 samples.

Results

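A set of 10 genes of the amino-acid stress response that the transcription factor ATF4 governs were followed in cultured lung mesenchymal stromal cells (LMSCs) as mammary tumors of the donor mice advanced. The members were Atf4, Asns, Ddit3, Trib3, Chac1, Psat1, Phgdh, Sesn2, Nupr1 and Ddit4, chosen by name, and all 10 had a row among the 34745 genes of the expression table. The RNA-seq data used here are 6 libraries of LMSCs of MMTV-PyMT mice, 2 for each of 3 tumor stages. All mice carried the polyoma middle T transgene under the MMTV promoter, which is active in mammary epithelium, so the transgene acts in the tumor and not by design in the stromal cells studied. The stages were adenoma (A-LMSC, mice of 6 to 7 weeks by the labels), pre-metastatic (PM-LMSC, 9 to 10 weeks) and metastatic (M-LMSC, 13 to 14 weeks), and tumor stage and age of the mouse cannot be told apart. The study's methods give slightly older mice for the first 2 stages. No tumor-free group was analysed here. The cells had been freed from digested lung, depleted of CD45+ cells, grown to passage 3 in DMEM with 10% serum and added glutamine, and so had all shared the same medium before their RNA was taken.

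ATF4 is best known as the output of the integrated stress response. Kinases that sense amino-acid shortage, unfolded protein in the endoplasmic reticulum (ER), viral RNA or lack of heme phosphorylate the initiation factor eIF2α, which lowers general translation while the Atf4 mRNA is translated more. The ATF4 protein then pairs with factors such as C/EBPβ on short composite elements near genes for amino-acid synthesis, uptake and charging onto tRNA. In fibroblasts the serine-glycine branch of this program supplies glycine for collagen. Because much of the control of ATF4 lies in translation, its mRNA level is not a measure of its protein, and only mRNA was measured here.

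The composite element, called CARE here, was searched for as TGATGNAA or its reverse complement TTNCATCA in the RefSeq window from 250 bases before to 50 bases after each annotated start (GRCm38.p6). All 10 members had a window, and 4 of them (40.0%) held the element: Asns, Trib3, Chac1 and Nupr1. It stood in 4.51% of all genes with a window (1219 of 27025) and in 2.49% of the genes tested below. The members were chosen by name as genes of the ATF4 response, so their higher share is no test. The matches are printed because they are the sequence feature that 4 members share and because the gene with the largest change among the amino-acid transporters, Slc7a11, holds a pair of them. Each run reads 5′ to 3′ on the strand of its gene, and capitals mark the element.
Asns, chr6:7693214-7693243, minus strand: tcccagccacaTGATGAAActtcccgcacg
Trib3, chr2:152344028-152344057, minus strand: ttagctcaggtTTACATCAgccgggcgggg
Chac1, chr2:119351038-119351067, plus strand: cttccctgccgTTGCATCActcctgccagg
Nupr1, chr7:126625562-126625591, minus strand: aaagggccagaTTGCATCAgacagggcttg
Slc7a11, chr3:50443652-50443680, minus strand: cTGATGCAAacctggagaatTTGCATCAt
In Asns the element began 23 bases before the RefSeq start, in Nupr1 110 bases and in Chac1 193 bases before it, and in Trib3 it lay 15 to 22 bases after the start. The printed stretches of Asns, Trib3 and Nupr1 overlap a noncoding stretch of an exon of their own gene in the GENCODE M21 annotation. For Trib3 only the last flanking bases do so. Its gene span there reaches up to base 152344032, and the element itself lies outside that span. The stretches of Chac1 and Slc7a11 lie outside the gene span. The ER stress element (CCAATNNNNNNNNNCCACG or its reverse complement) was in 0 of the 10 members and in 0.137% of all genes. The other 6 members, among them Atf4, Ddit3 and Psat1, had no CARE in their window, which says only that these letters are not there.

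**Figure D1:**
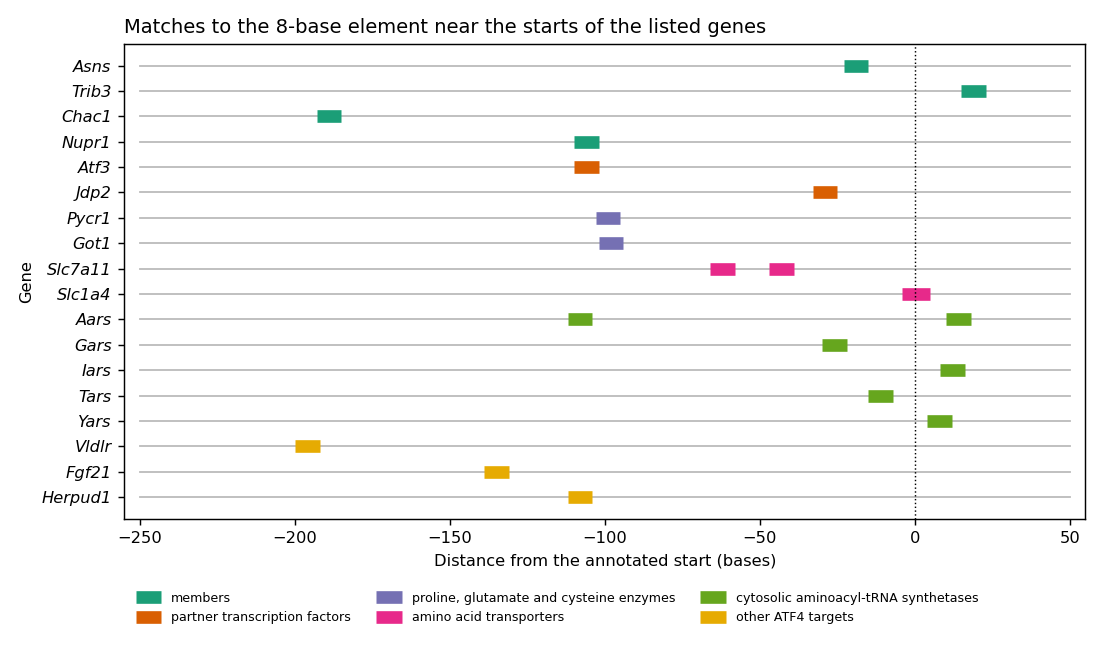
Matches to TGATGNAA, on either strand, in the windows of the listed genes that hold at least 1; the horizontal axis is the distance in bases from the annotated start, each grey line is 1 gene's window and each block 1 match, colored by gene list. The 4 members and 5 tRNA synthetases hold matches, and Slc7a11 holds a pair before its start.

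Over the other lists the element was present in 5 of 11 genes with a window for the cytosolic aminoacyl-tRNA synthetases (45.5%), which attach amino acids to tRNA. These were Aars, Gars, Iars, Tars and Yars. It was present in 2 of 7 amino acid transporters (Slc7a11 and Slc1a4), 2 of 9 partner transcription factors (Atf3 and Jdp2) and 0 of 11 ER chaperones. The ER stress element was in 6 of those 11 chaperones (54.5%), among them Hspa5, the main chaperone of the ER lumen. The map of matches shows that distances to the start differed from gene to gene. A match is a string of letters and no binding was measured.

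The authors deposited FPKM, fragments scaled to transcript length and library total, so levels of different genes can be compared per length. Depth estimated from the spacing of low values was 14.8 to 20.8 M fragments (mega-fragments) per library, and the 10 members rested on an estimated 337 (Trib3 in M-LMSC replicate 1) to 9374 fragments (Phgdh). The labelled cell type was checked by its markers. Of 12 stromal markers, 12 reached a mean of 1 FPKM, and their summed level was 2140 to 3380 FPKM. Summed levels of other cell types' markers were lower, but some moved with the stage. The 10 haematopoietic markers summed to 74.2 to 168 FPKM in A- and PM-LMSCs and to 404 and 290 FPKM in M-LMSCs. Most of that sum was Lyz2, at 115 and 106 FPKM in adenoma-stage cells and 362 and 250 FPKM in metastatic-stage cells. The rise was not limited to Lyz2. From the adenoma to the metastatic stage, mean Tyrobp went from 4.42 to 12.6 FPKM and mean Fcer1g from 0.846 to 4.19 FPKM. All 6 haematopoietic markers that reached a mean of 1 FPKM rose between these stages, by a median of 1.12 on the log2 scale. In limma's fit 0 of these 6 passed an adjusted p of 0.05, and 5 did with the replicate number as a block. Ptprc, the gene for CD45, did not exceed 0.0987 FPKM in any library. The 6 mesothelial markers summed to 119 and 177 FPKM in adenoma-stage cells, 291 and 407 FPKM in pre-metastatic cells, and 195 and 486 FPKM in metastatic-stage cells. Of these 6, Krt19 went the other way, with a mean of 15.6 FPKM in adenoma-stage, 8.68 FPKM in pre-metastatic and 4.71 FPKM in metastatic-stage cells (M-LMSCs against A-LMSCs -1.53 on the log2 scale, adjusted p = 0.0395 from limma). The 10 epithelial markers summed to 3.74 and 7.07 FPKM in adenoma-stage cells, 10.8 and 18.8 FPKM in pre-metastatic cells, and 11.5 and 24.7 FPKM in metastatic-stage cells. Of these 10, only Krt8 and Krt18 reached a mean of 1 FPKM. Both passed the threshold at both later stages against A-LMSCs with the block, and neither did without it. The 8 endothelial markers summed to at most 3.31 FPKM. No marker of any list was at 0 in all libraries. In bulk RNA, fewer cells of a type and less RNA per cell cannot be told apart.

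Atf4 (chromosome 15, 80255184 to 80257541, plus strand, GRCm38) was among the most abundant members per length, at 171.5 and 182.9 FPKM in adenoma-stage replicates 1 and 2, 142.3 and 168.7 FPKM at the pre-metastatic stage, and 148.6 and 187.7 FPKM at the metastatic stage. Both PM-LMSC libraries lay below both A-LMSC libraries, and 1 M-LMSC library was the highest of the 6 while the other lay below both A-LMSC libraries. The stage means were 177 ± 8.02, 155 ± 18.7 and 168 ± 27.7 FPKM (SD, n = 2). On log2(FPKM + 1), the scale of all log2 values here, PM-LMSCs differed from A-LMSCs by -0.19 (95% interval -0.56 to 0.18, adjusted p = 0.867 from limma). M-LMSCs differed from A-LMSCs by -0.08 (95% interval -0.45 to 0.28, adjusted p = 0.803 from limma). The spread of Atf4 over the 6 libraries was 0.40 on the log2 scale, and 56.0% of tested genes spread at least as widely.

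Nupr1 encodes a small chromatin-associated protein induced by many stresses, and it was the member that separated the stages most cleanly. It was at 14.7 and 13.1 FPKM in adenoma-stage cells, 15.6 and 15.3 FPKM in pre-metastatic cells, and 21.8 and 20.5 FPKM in metastatic-stage cells. Both M-LMSC libraries lay above the other 4, and both PM-LMSC libraries lay above both A-LMSC libraries. The means were 13.9 ± 1.14, 15.4 ± 0.265 and 21.2 ± 0.864 FPKM (SD, n = 2), 1.52 times as high in M-LMSCs as in A-LMSCs. The log2 fold change of M-LMSCs against A-LMSCs was 0.57 (SE 0.11, 95% interval 0.31 to 0.84, adjusted p = 0.114 from limma). It did not pass the threshold of 0.05 over all 10279 genes tested. With the replicate number as a block in the fit the adjusted p was 0.0302, past the threshold, and with the block and GC and length trends removed it was 0.0412. Over all alternatives the adjusted p ranged from 0.0302 to 0.698, and with each library left out the log2 fold change stayed between 0.50 and 0.65. Against PM-LMSCs the log2 fold change was 0.43 (SE 0.11, adjusted p = 0.353 from limma, from 0.131 to 0.742 over the alternatives). The change of Nupr1 was alike in both replicate numbers, 0.54 and 0.61 on the log2 scale against A-LMSCs. The haematopoietic marker sum was also higher in both M-LMSC libraries. With the same block, 5 of the 6 tested markers of that list passed the threshold in M-LMSCs against A-LMSCs. The epithelial and mesothelial marker sums were higher in every PM- and M-LMSC library than in both A-LMSC libraries. The part of all these markers' cells in the level of Nupr1 was not tested.

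Ddit3 encodes CHOP, a transcription factor of prolonged ER stress. Its levels were 16.8 and 17.4 FPKM in adenoma-stage cells, 18.2 and 19.6 FPKM in pre-metastatic cells, and 17.7 and 32.7 FPKM in metastatic-stage cells. M-LMSC replicate 2 stood well above the other 5 libraries, and the 4 PM- and M-LMSC libraries exceeded both A-LMSC ones. The log2 fold change of M-LMSCs against A-LMSCs was 0.47 (SE 0.26, 95% interval -0.14 to 1.09, adjusted p = 0.433 from limma). One library decided its size: without M-LMSC replicate 1 it was 0.90 (adjusted p = 0.0443 from limma, past the threshold), and without M-LMSC replicate 2 it was 0.04. Over the alternatives the adjusted p ranged from 0.0443 to 0.960. Exons of Ddit3 share 68 bases with Mars on the opposite strand, and Mars was lower in M-LMSCs, at 20.6 and 27.2 FPKM, than in A-LMSCs, at 31.0 and 33.2 FPKM. Whether the counting used strand is not given in the sources used here.

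Trib3 encodes a pseudokinase that ATF4 and CHOP induce and that in turn restrains them. It was at 18.4 and 21.0 FPKM in adenoma-stage cells, 12.3 and 20.0 FPKM in pre-metastatic cells, and 9.59 and 29.8 FPKM in metastatic-stage cells. Its lowest and highest libraries were the 2 of the metastatic stage, so the stage means hid most of its variation. Those means were 19.7 ± 1.84, 16.1 ± 5.45 and 19.7 ± 14.3 FPKM (SD, n = 2). Against A-LMSCs, Trib3 differed on the log2 scale by -0.31 in PM-LMSCs (95% interval -1.44 to 0.83, limma adjusted p = 0.926) and by -0.19 in M-LMSCs (95% interval -1.33 to 0.94, limma adjusted p = 0.860). Both intervals reach below -1, so lower levels by more than 1 on this scale cannot be told from none at this replication.

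Chac1 encodes an enzyme that breaks down glutathione and is a classic late target of ATF4 and CHOP. Its levels were 28.2 and 29.3 FPKM in adenoma-stage cells, 24.4 and 28.3 FPKM in pre-metastatic cells, and 15.1 and 42.4 FPKM in metastatic-stage cells. As for Trib3, the 2 M-LMSC libraries were the extremes of all 6. The mean of M-LMSCs, 28.8 ± 19.3 FPKM (SD, n = 2), was 0.999 times that of A-LMSCs. On the log2 scale the difference was -0.17 (95% interval -1.15 to 0.81, adjusted p = 0.856 from limma).

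Asns makes asparagine and was the reference gene through which amino-acid response elements were first worked out. It was at 49.9 and 54.1 FPKM in adenoma-stage cells, 44.6 and 49.5 FPKM in pre-metastatic cells, and 41.3 and 63.3 FPKM in metastatic-stage cells. Both PM-LMSC libraries lay just below A-LMSCs, and the M-LMSC libraries lay on either side of all others. Asns differed from A-LMSCs by -0.14 in PM-LMSCs (95% interval -0.62 to 0.34, limma adjusted p = 0.920) and by -0.02 in M-LMSCs (95% interval -0.50 to 0.45, limma adjusted p = 0.965).

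Phgdh and Psat1 catalyze the opening steps of serine synthesis from a glycolytic intermediate. Phgdh was the most abundant member, at 181 and 199 FPKM in adenoma-stage cells, 194 and 237 FPKM in pre-metastatic cells, and 144 and 175 FPKM in metastatic-stage cells. Both M-LMSC libraries were below the other 4. The log2 fold change of M-LMSCs was -0.43 against PM-LMSCs (SE 0.15, 95% interval -0.80 to -0.07, adjusted p = 0.484 from limma) and -0.25 against A-LMSCs (adjusted p = 0.468 from limma). Phgdh shares at least 200 bases at 95% identity or more with 13 processed pseudogenes, none of which has a row of its own in the table, so reads could have been split or moved. Psat1 was at 40.8 and 46.5 FPKM in adenoma-stage cells, 32.9 and 37.5 FPKM in pre-metastatic cells, and 28.5 and 36.8 FPKM in metastatic-stage cells. All 4 later-stage libraries of Psat1 lay below both A-LMSC libraries. Against A-LMSCs, Psat1 differed by -0.30 on the log2 scale in PM-LMSCs (SE 0.16, limma adjusted p = 0.835) and by -0.41 in M-LMSCs (SE 0.16, limma adjusted p = 0.296, from 0.0587 to 0.960 over the alternatives). The first and second enzyme thus differed in order, with Phgdh highest in PM-LMSCs and Psat1 highest in A-LMSCs, and neither passed the threshold.

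Sesn2 and Ddit4 encode inhibitors of the growth kinase mTORC1, the former a leucine sensor and the latter, also called REDD1, acting through TSC2. Sesn2 was the steadiest member, at 30.9 and 29.6 FPKM in adenoma-stage cells, 27.5 and 31.2 FPKM in pre-metastatic cells, and 26.6 and 33.0 FPKM in metastatic-stage cells. Its stage means lay within 29.3 to 30.2 FPKM, and 75.2% of tested genes spread at least as widely over the libraries. The log2 fold change of M-LMSCs against A-LMSCs was -0.03, with a 95% interval from -0.36 to 0.30. Ddit4 was at 19.7 and 23.1 FPKM in adenoma-stage cells, 16.2 and 22.1 FPKM in pre-metastatic cells, and 19.4 and 29.9 FPKM in metastatic-stage cells. Its groups overlapped in every comparison, and the largest of its 3 log2 fold changes was 0.33 in M-LMSCs against PM-LMSCs (95% interval -0.23 to 0.89, adjusted p = 0.712 from limma).

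**Figure D2:**
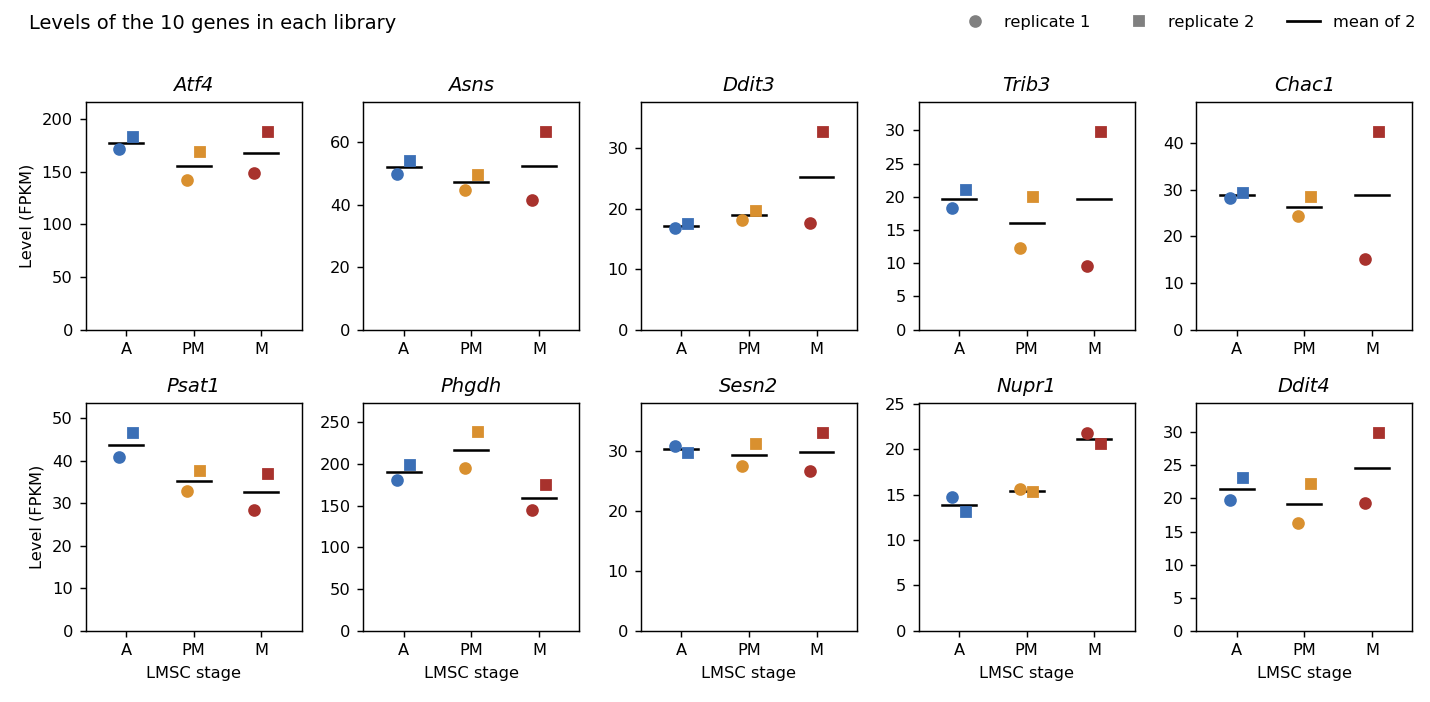
Level in FPKM (vertical axis, from 0, own scale per panel) of each of the 10 genes in A-, PM- and M-LMSCs, with circles for replicate 1, squares for replicate 2 and a line for the mean of the 2. Nupr1 is highest in both M-LMSC libraries, at 21.8 and 20.5 FPKM, whereas Trib3 and Chac1 have their lowest and highest values in the 2 M-LMSC libraries.

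Over the 3 comparisons, limma's test called 0 of the 10 members. In PM-LMSCs against A-LMSCs it called 0.0389% of all genes (4 of 10279), in M-LMSCs against A-LMSCs 0.0681% (7) and in M-LMSCs against PM-LMSCs 0.0292% (3), so 0 of 10 is no departure from the background. At an unadjusted p under 0.05 the members were 0, 2 (Psat1 and Nupr1) and 2 (Phgdh and Nupr1), beside 6.53%, 14.6% and 8.94% of all genes. With the replicate block the background rose to 0.292%, 3.92% and 0.418%, and the members called were 0, 1 (Nupr1) and 0. The median log2 fold change of the 10 was -0.13 in PM-LMSCs against A-LMSCs (7 lower), -0.06 in M-LMSCs against A-LMSCs (7 lower) and 0.11 in M-LMSCs against PM-LMSCs (7 higher). The medians over all tested genes were 0.01, 0.03 and -0.002. Both later stages share the A-LMSC libraries as their reference. Directions were mixed within each comparison, as the plot of fold changes shows, and the widest intervals belonged to Trib3 and Chac1.

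Counted by libraries that did not overlap, Ddit3 and Nupr1 were higher and Atf4, Asns and Psat1 lower in PM-LMSCs than in A-LMSCs, where 19.6% of genes were higher and 19.7% lower in this way. In M-LMSCs against A-LMSCs, Ddit3 and Nupr1 were higher (27.1% of genes) and Psat1 and Phgdh lower (24.4%). In M-LMSCs against PM-LMSCs, Nupr1 was higher (17.8%) and Phgdh lower (16.7%). With 1 to 3 of 10 members in each direction, these shares were near those of all genes.

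**Figure D3:**
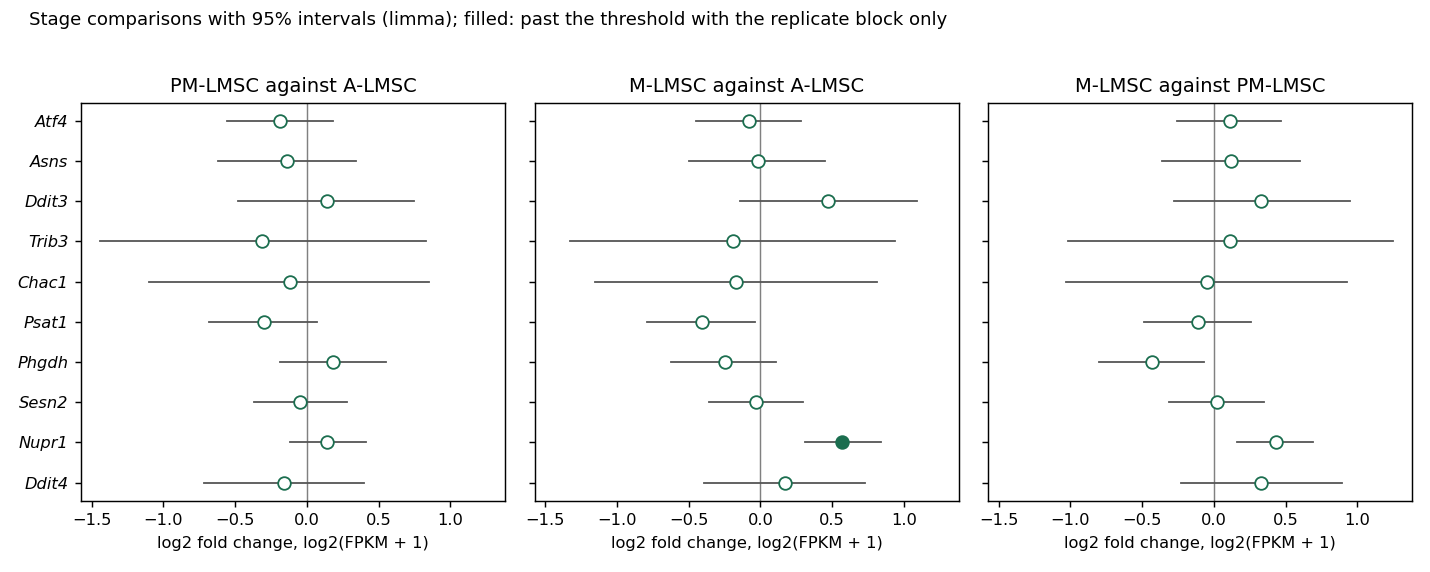
Log2 fold change (horizontal axis, on log2(FPKM + 1)) of each gene in the 3 stage comparisons, with 95% intervals from limma; a filled point marks the value that passed an adjusted p of 0.05 with the replicate block only. That point is Nupr1 in M-LMSCs against A-LMSCs (0.57), and the only other intervals that leave out 0 are those of Psat1 in M-LMSCs against A-LMSCs and of Phgdh and Nupr1 in M-LMSCs against PM-LMSCs.

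For 7 members, Atf4, Asns, Ddit3, Trib3, Chac1, Sesn2 and Ddit4, the log2 gap between the 2 M-LMSC libraries was larger than any of their 3 stage differences. For Psat1, Phgdh and Nupr1 the largest stage difference was larger than the gap at any stage. M-LMSC replicate 2 was the highest of the 6 libraries for 7 of the 10 members, and M-LMSC replicate 1 was the lowest for 6. Between these 2 libraries of 1 stage, replicate 2 exceeded replicate 1 by 1.54 on the log2 scale for Trib3 (3.10 times in FPKM), a gap that 0.204% of tested genes matched or passed. Chac1 exceeded it by 1.43 (2.80 times, 0.263% of genes), Ddit3 by 0.85 (1.13% of genes), and Asns and Ddit4 by 0.60 each (2.86% and 2.87% of genes). The gap was 0.36 for Psat1, 0.34 for Atf4, 0.30 for Sesn2 and 0.27 for Phgdh. Nupr1 alone went the other way, by -0.08. The median gap of the 10 was 0.48, beside 0.01 over all tested genes (SD 0.36). These M-LMSC gaps were noticed in the data before they were counted, so they carry no test.

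The same direction was present at the other stages with smaller gaps. Replicate 2 exceeded replicate 1 for 9 of 10 members in PM-LMSCs (median 0.20, Trib3 0.66 and Ddit4 0.42 the largest) and for 8 of 10 in A-LMSCs (median 0.10, Ddit4 0.21 the largest). The medians over all genes were -0.03 and -0.01. In the fit with the block, the coefficient of replicate 2 against 1 was positive for 9 of the 10 members, with a median of 0.27, from 0.79 for Trib3 and 0.56 for Chac1 to -0.09 for Nupr1. It was called for 0 members and for 0.0486% of all genes (5 of 10279), and 6 members, among them Ddit4 and Trib3, had an unadjusted p under 0.05, as had 22.6% of all genes. The lowest adjusted p from this limma fit was 0.120 for Ddit4. The coefficient averages the gaps of all stages, the M-LMSC gap noticed beforehand among them. Its p-values are therefore no independent test of that gap.

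**Figure D4:**
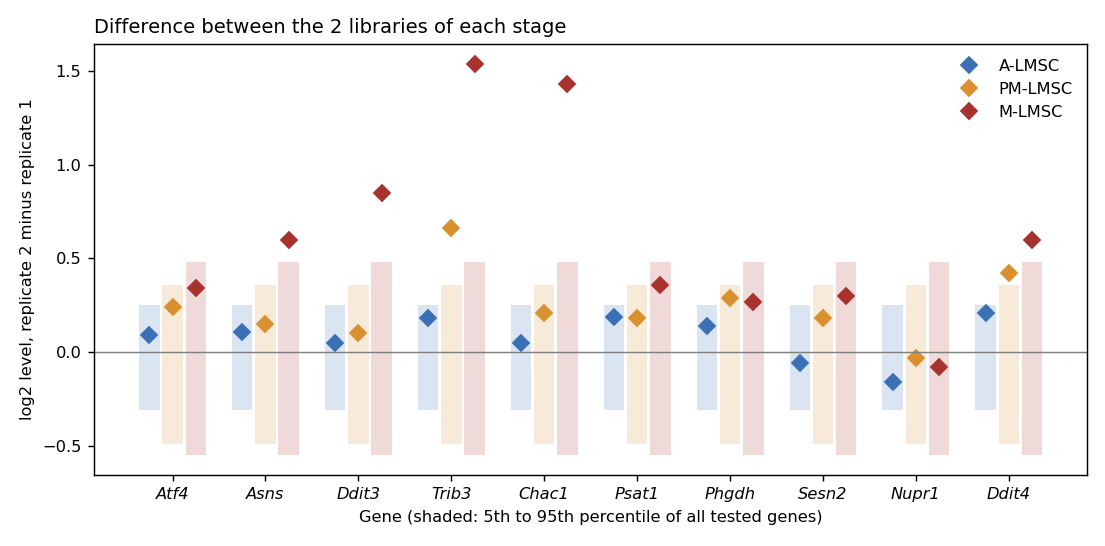
Difference in log2(FPKM + 1) between replicate 2 and replicate 1 (vertical axis) of each gene at each stage, with shaded bars from the 5th to the 95th percentile of all tested genes of that stage. Trib3 (1.54), Chac1 (1.43), Ddit3 (0.85), Asns and Ddit4 (0.60 each) lie above the M-LMSC bar, which ends at 0.48.

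Several measures moved with this gap. Across genes, which are not independent, the gap correlated with GC content at 0.42 in M-LMSCs, 0.49 in PM-LMSCs and 0.14 in A-LMSCs, and with log2 exon length at -0.20, -0.20 and -0.05. The median GC content of the members was 56.4% against 50.3% over tested genes. After each library's trend on GC content and length was removed, the median M-LMSC gap of the members was 0.40, with Trib3 at 1.33, Chac1 at 1.24, Ddit3 at 0.95, Asns at 0.64 and Psat1 at 0.40. The gap was then 0.40 for Ddit4 (0.60 before), 0.17 for Atf4 (0.34 before), 0.11 for Sesn2 (0.30 before), 0.08 for Phgdh (0.27 before) and -0.11 for Nupr1. From M-LMSC replicate 1 to replicate 2 the mesothelial marker sum went from 195 to 486 FPKM, the stromal one from 2420 to 3380 FPKM and the epithelial one from 11.5 to 24.7 FPKM, while the haematopoietic one went from 404 to 290 FPKM. The part of these cell types, of culture density and of medium in the gap was not tested. The estimated depths of these 2 libraries were 16.5 and 16.6 M fragments.

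The gap was not shared by every arm of the response. All 7 tested genes for eIF2α itself, its kinases and its phosphatase subunits were lower in M-LMSC replicate 2 than in replicate 1, with a median of -0.15. Eif2ak4, which encodes the amino-acid sensor GCN2, was at 4.05 and 3.62 FPKM, and Eif2ak3, which encodes the ER sensor PERK, at 5.94 and 4.93 FPKM. Over all tested genes, 51.1% were higher in M-LMSC replicate 2. Downstream, 9 of 10 amino acid transporters were higher in replicate 2 (median 0.42), as were 9 of 10 serine, glycine and one-carbon enzymes (median 0.32). The counts were 13 of 18 for tRNA synthetases (median 0.18) and 9 of 14 for other ATF4 targets (median 0.22). For proline, glutamate and cysteine enzymes the count was 4 of 7 (median 0.18), so the downstream lists differed. Among the transporters, the glutamine carrier Slc1a5 was at 5.62 and 12.5 FPKM, and Slc7a5, the leucine carrier, at 33.9 and 60.1 FPKM. Among the enzymes, Shmt2, the mitochondrial step from serine to glycine, was at 66.9 and 119 FPKM. The 13 ER chaperones had a median of -0.07, with Hspa5 at 169 and 146 FPKM. The heat map sets these lists side by side.

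**Figure D5:**
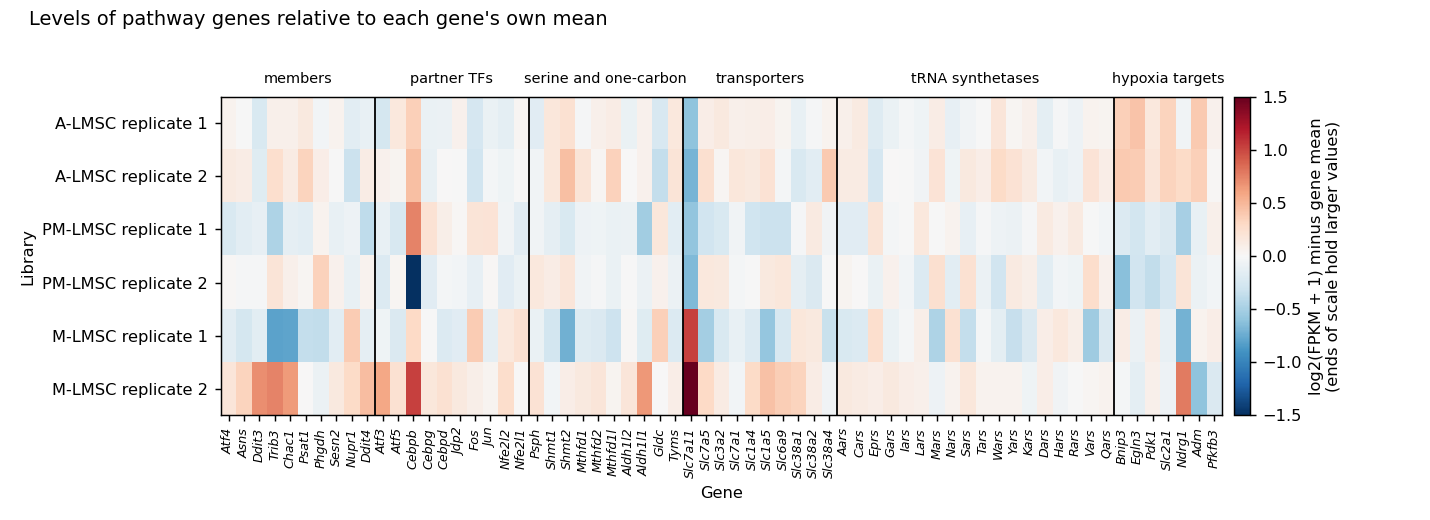
Log2(FPKM + 1) minus each gene's own mean over the 6 libraries (color, clipped at -1.5 and 1.5), with libraries as rows and the tested genes of 6 lists as columns. In the members' block the row of M-LMSC replicate 2 is mostly above the gene means (9 of 10) and that of M-LMSC replicate 1 mostly below (9 of 10), and Slc7a11 is high in both M-LMSC rows.

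The genes whose pattern over the 6 libraries was most like that of Trib3, by the root mean square difference of log2 levels centered on each gene's mean, were Ndrg1 (0.068), Chac1 (0.162), Slc1a5 (0.164), Fbln1 (0.186) and Smoc2 (0.186), out of 10278 genes ranked. Ndrg1 is known from hypoxia and was at 7.06, 9.21, 4.91, 8.58, 4.13 and 13.4 FPKM in the order A, PM and M with replicate 1 first. Trib3 was thus near 1 other member, while Ddit4 ranked 79 and Asns 85. For Atf4 the nearest genes were Mettl24 (0.027), Slc4a1ap (0.029), Agfg2 (0.032), Lonp1 (0.034) and B4galnt1 (0.039), of which Lonp1, a mitochondrial protease, was on the list of other ATF4 targets. Sesn2 ranked 164 and Asns 283 in likeness to Atf4, and Trib3 9225, since Atf4 spread far less.

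The rest of the pathway was read in lists, each by its counts in limma's test over all genes. Among the 7 genes for eIF2α, its kinases and its phosphatase subunits, 0 were called in any comparison with or without the block. The largest change was that of Eif2ak2, the double-stranded RNA sensor PKR. Against A-LMSCs it was 0.55 in PM-LMSCs (limma adjusted p = 0.571) and 0.53 in M-LMSCs (limma adjusted p = 0.247). Among 7 eIF2B subunits and GCN2 regulators, Impact, an inhibitor of GCN2 activation, was at 23.8 and 16.4 FPKM in adenoma-stage cells, 32.6 and 21.9 FPKM in pre-metastatic cells, and 37.0 and 22.0 FPKM in metastatic-stage cells. Replicate 1 exceeded replicate 2 at every stage, as it did for Nupr1 among the members. Impact was called in M-LMSCs against A-LMSCs only with the block (log2 fold change 0.51, adjusted p = 0.465 from limma without it, 0.0497 with it, and up to 0.969 over the alternatives).

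Of 10 partner transcription factors 0 were called. Cebpb, whose product pairs with ATF4, was at 104 and 111 FPKM in adenoma-stage cells, 136 and 10.1 FPKM in pre-metastatic cells, and 99.6 and 165 FPKM in metastatic-stage cells, so PM-LMSC replicate 2 stood apart, whereas 0 of the 10 members had their lowest value in that library. Atf5, a close relative of Atf4, was at 117 and 108 FPKM in adenoma-stage cells, 88.3 and 107 FPKM in pre-metastatic cells, and 90.0 and 123 FPKM in metastatic-stage cells. Its libraries overlapped between M-LMSCs and the others. Of the 10 serine, glycine and one-carbon enzymes 0 were called, and the largest change was that of Shmt2, at -0.66 in M-LMSCs against A-LMSCs (adjusted p = 0.345 from limma). Of 18 tRNA synthetases 0 were called, with medians of -0.002 and -0.09 in PM- and M-LMSCs against A-LMSCs. The 7 tested proline, glutamate and cysteine enzymes had 0 called as well, with medians of -0.05 and 0.02.

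The amino acid transporters held the only gene of the 11 pathway lists that was called without the block. Slc7a11, which imports cystine for glutathione, was at 0.370 and 0.284 FPKM in adenoma-stage cells, 0.388 and 0.321 FPKM in pre-metastatic cells, and 3.25 and 5.06 FPKM in metastatic-stage cells. Both M-LMSC libraries were far above the other 4, and only through them did Slc7a11 reach the filter of a mean of 1 FPKM. Its entry into the test thus rested on the same difference that was tested. Its log2 fold change was 1.94 against A-LMSCs (SE 0.18, adjusted p = 0.0385 from limma) and 1.91 against PM-LMSCs (SE 0.18, adjusted p = 0.0531 from limma, 0.0173 with the block, and from 0.00338 to 0.347 over the alternatives, 5 of 14 of which called it). Of 14 alternatives, 7 kept the call against A-LMSCs, and the adjusted p ranged from 0.00328 to 0.236, losing the call with no filter on low values, with only the stages compared, with GC and length trends removed and without any 1 of the A- or PM-LMSC libraries. The other 9 tested transporters were not called, and the next largest change in M-LMSCs was 0.42 for Slc38a1 (adjusted p = 0.210 from limma). Slc7a11 holds 2 copies of the element printed above, and so does Aars, whose log2 fold change in M-LMSCs against A-LMSCs was -0.14 (adjusted p = 0.674 from limma). The 4 members with 1 copy ranged from -0.19 (Trib3) to 0.57 (Nupr1).

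Among other ATF4 targets, 0 of 14 tested were called. Stc2, a secreted glycoprotein, was lower at both later stages, at 3.73 and 3.95 FPKM in adenoma-stage cells, 2.51 and 2.58 FPKM in pre-metastatic cells, and 2.50 and 2.73 FPKM in metastatic-stage cells, with a log2 difference of -0.42 in M-LMSCs (adjusted p = 0.183 from limma). Gadd45a, a growth-arrest gene, differed by 0.63 in M-LMSCs against A-LMSCs (adjusted p = 0.310 from limma). Fgf21, an endocrine stress signal, did not reach a mean of 1 FPKM and was at 0.0650 and 1.36 FPKM in the M-LMSC libraries. Of the 7 tested relatives of the members, Sesn3 was at 3.22 and 3.17 FPKM in adenoma-stage cells, 4.01 and 4.19 FPKM in pre-metastatic cells, and 5.20 and 6.05 FPKM in metastatic-stage cells. It was called in M-LMSCs against A-LMSCs only with the block (log2 fold change 0.66, SE 0.12, adjusted p = 0.106 from limma without it, 0.0284 with it, and up to 0.657 over the alternatives). Sesn1 differed by 0.48 in the same comparison (adjusted p = 0.195 from limma), Sesn2 by -0.03. Chac2 differed there by 0.29 (adjusted p = 0.540 from limma) and Ddit4l by 0.16 (adjusted p = 0.726 from limma). Trib1 and Trib2, at 2.69 to 5.51 FPKM, lay below Trib3 in every library, and Nupr1l did not exceed 0.153 FPKM.

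A pair of neighbouring programs gave a reference. The 13 ER chaperones of the ATF6 and XBP1 arms had medians of -0.11 in both PM- and M-LMSCs against A-LMSCs, with 0 called, and the largest change was that of Manf at -0.56 in PM-LMSCs (adjusted p = 0.598 from limma). The 7 tested hypoxia targets were lower in 7 of 7 cases both in PM-LMSCs (median -0.48) and in M-LMSCs (median -0.34) against the same A-LMSC libraries. Of these, Egln3, an oxygen-sensing prolyl hydroxylase, was called in M-LMSCs with the block (log2 fold change -0.52, adjusted p = 0.114 from limma without it, 0.0384 with it, and up to 0.657 over the alternatives). Ddit4, which hypoxia also induces, differed by -0.16 and 0.17 in these comparisons.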

How the data were processed

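RNA-seq was carried out by the authors, and the data used here hold 2 LMSC cultures per stage. The paper describes a further replicate of each stage in another deposit, which was not used here. They deposited FPKM per gene and library. Per the labels, reads were aligned with TopHat2 2.0.9 to mm10. The quantification tool and annotation are not given in the sources used here. Columns were matched to samples by their labels, and the number of columns of values not used was 0. The 10279 genes whose mean reached 1 FPKM were tested on log2(FPKM + 1) with limma 3.58.1 in R 4.3.3 (1 mean per stage, eBayes with a trend, Benjamini-Hochberg adjustment, threshold 0.05). A fold change on this scale understates that of low genes. All 10 members passed the filter. P-values set a stage difference against the spread between the 2 cultures of a stage, pooled over all stages and drawn by eBayes toward the trend over all genes.

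Replicate numbers 1 and 2 recur at each stage, and the labels say no more. Deviations of same-numbered libraries from their stage means correlated at 0.238, 0.307 and 0.491, before any correction for GC content and length. The main fit has no block. The block, as an alternative, treats the numbers as pairing, which is assumed from these same data and not given by the labels. What the numbers share across stages was not tested. Depth was estimated from low values of single-transcript genes, of which 96.1% to 96.9% were whole fragments within 0.1. Gene positions came from GENCODE M21 (34267 identifiers matched, 478 not), and of 57 repeated names the first was used. Copies were searched with blastn 2.17.0, and motifs in RefSeq promoter windows with Python 3.11.15. Alternatives were a pseudocount of 0.1, no filter (21698 genes), median centering, quantile normalization, only the stages compared, the block, and each library left out. The correction for GC content and length (lowess, span 0.3) was added after seeing the data. The fits were also run on simulated data with independent noise and no replicate or GC structure. Such data cannot show how the block behaves on these libraries. The members and lists were chosen with earlier results of these data known. Named were all members and every pathway-list gene past the threshold with or without the block. From the others at most 2 per list and comparison with the largest change were named. Added to these were relatives of the members and the 5 genes most like Trib3, the member of widest spread, and Atf4. The cell type marker lists are given by their sums and by a few genes chosen after their values were seen. Not every marker gene past the threshold with the block is named. Levels of other listed genes were given as examples chosen after their values were seen.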

Additional observations from a re-analysis of the deposited data

How the results depend on the processing

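Having 2 libraries per stage limits every call, and leaving one out leaves a stage with a single library that is assumed to vary like the others. With the replicate block (the assumed pairing), the genes called were 30, 403 and 43, against 4, 7 and 3 without it. The order is PM-LMSCs against A-LMSCs, M-LMSCs against A-LMSCs and M-LMSCs against PM-LMSCs. The members called with the block were 0, 1 and 0. It changed no other member's call. With no filter on low values 1 and 3 genes were called in the first 2 comparisons, and with only the stages compared 21 and 1. GC and length correction gave 16 genes in M-LMSCs against A-LMSCs, and with the block 289 there (1 member) and 6 in M-LMSCs against PM-LMSCs. Leaving out each library gave 1 to 28, 1 to 90 and 2 to 25 genes, 0 to 1 members in M-LMSCs against A-LMSCs, and member medians of -0.29 to 0.38 against A-LMSCs and -0.16 to 0.41 against PM-LMSCs, the extremes being without an M-LMSC library. Without M-LMSC replicate 1 the medians were 0.38 and 0.41.

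Of 420 alternative values of single members, 388 kept direction and call, 29 reversed and 3 became called. The reversals fell on 16 of 30 results, none of them larger than 0.33 in size in the main fit. After reversal some values were larger, as the ranges below show. In the correction, with or without the block, Atf4 became 0.04 and Sesn2 0.12 in M-LMSCs against A-LMSCs, and Chac1 0.08 against PM-LMSCs. Sesn2 became -0.0006 against PM-LMSCs with median centering. With each library left out, reversed results ranged as follows. PM-LMSCs against A-LMSCs gave -0.64 to 0.02 for Trib3, -0.13 to 0.04 for Sesn2 and -0.37 to 0.05 for Ddit4. M-LMSCs against A-LMSCs gave -0.25 to 0.08 for Atf4, -0.32 to 0.28 for Asns, -0.96 to 0.58 for Trib3, -0.88 to 0.54 for Chac1, -0.18 to 0.12 for Sesn2 and -0.13 to 0.47 for Ddit4. M-LMSCs against PM-LMSCs gave -0.06 to 0.27 for Atf4, -0.18 to 0.42 for Asns, -0.09 to 0.76 for Ddit3, -0.66 to 0.88 for Trib3, -0.76 to 0.67 for Chac1, -0.29 to 0.07 for Psat1 and -0.13 to 0.17 for Sesn2. The cause was not tested.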
